A study of Homo sapiens with 24 samples.

Results

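The change in the response of MOLT4 cells to SK-3-91 between 1 h and 4 h was measured as a difference of differences: the log2 fold change of SK-3-91 over DMSO at 4 h minus the same fold change at 1 h. MOLT4 cells come from a human acute lymphoblastic leukaemia of T cells, SK-3-91 is described by the submitters as a degrader acting on many kinases, and DMSO is its solvent. The contrast used 16 of the 24 samples in the series, 4 libraries each of SK-3-91 at 4 h, DMSO at 4 h, SK-3-91 at 1 h and DMSO at 1 h, and covered all 9822 genes of the deposited count table. All cells were of the same line, grown in RPMI1640 with 10% FBS, and each treated group had DMSO cultures of the same time. The dose of SK-3-91 is not given in the sources used here. Nothing in the labels says that the 4 libraries of a group came from separate cultures, so p-values measure only how much these samples vary, and that variation may be technical.

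Degraders bring a target protein to a ubiquitin ligase, and the tagged protein is then destroyed by the proteasome. Protein kinases act at many levels of gene expression: receptor and MAP kinases switch short-lived immediate-early transcripts, cyclin-dependent kinases with cyclin T, cyclin K or cyclin H drive RNA polymerase II through transcription, and cell-cycle kinases time replication and mitosis. The level of an mRNA follows both its synthesis and its decay, so transcripts with short and long lives can move on different time scales after the same treatment.

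Levels are given as CPM, a gene's counts per megaread counted, after scaling. The counted reads per library, in megareads, ranged from 10.64 to 10.87 for SK-3-91 at 4 h, from 14.27 to 14.55 for DMSO at 4 h, from 13.57 to 13.65 for SK-3-91 at 1 h and from 14.01 to 14.31 for DMSO at 1 h. The mean of the treated libraries was 74.7% of the DMSO mean at 4 h and 96.2% at 1 h, and the part of this difference in the results was not tested. In bulk RNA, fewer cells and less RNA per cell cannot be told apart, and every level below is a share of the counted reads after scaling. Of 21 T-lineage markers 20 were measured, and in CPM their summed level was 6157.5 to 6376.9 in SK-3-91 at 4 h, 4690.5 to 4839.9 in DMSO at 4 h, 5137.1 to 5399.5 in SK-3-91 at 1 h and 4715.1 to 4879.8 in DMSO at 1 h. Of the markers of other cell types, 3 of 10 B-cell, 1 of 8 fibroblast and endothelial (PECAM1), and 0 of 10 myeloid, 0 of 10 erythroid and 0 of 7 epithelial markers were measured. In longer lists 1 of 14 myeloid and 1 of 11 epithelial genes were measured. The myeloid one, CD68, a lysosomal protein of macrophages, averaged 4.15 ± 1.04 CPM in SK-3-91 and 1.73 ± 0.25 in DMSO at 4 h, and 2.04 ± 0.18 in SK-3-91 and 2.13 ± 0.45 in DMSO at 1 h (SD, n = 4 each). Its response was called higher at 4 h, by 1.32 ± 0.28 (log2, SE), and the epithelial one, at -0.37, was not called; the part of other cell types in the results was not tested.

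The response changed between the time points for 80.4% of the measured genes, in both directions. It was higher at 4 h than at 1 h for 3986 genes (40.6% of those tested) and lower for 3915 (39.9%), by edgeR's quasi-likelihood test with a Benjamini-Hochberg adjusted p under 0.05. A change of at least 2-fold was found for 761 genes upward (7.75%) and 1336 downward (13.6%). The median estimate over all genes was 0.01 on the log2 scale and the median standard error (SE) was 0.086. For comparison, 87.9% of genes were called at 4 h and 54.3% at 1 h. For 3133 of the genes with a higher response (31.9% of all genes) and 3183 with a lower one (32.4%), the sign was the same for every way of taking 1 library from each group. Without scaling factors beyond the library totals, the median of all genes was -0.26, and 2672 genes were called higher and 5198 lower. Directions below are therefore relative to the bulk of the measured transcripts, and a gene said to have risen or fallen relative to 1 h is one whose response did so by the test of this contrast.

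**Figure D1:**
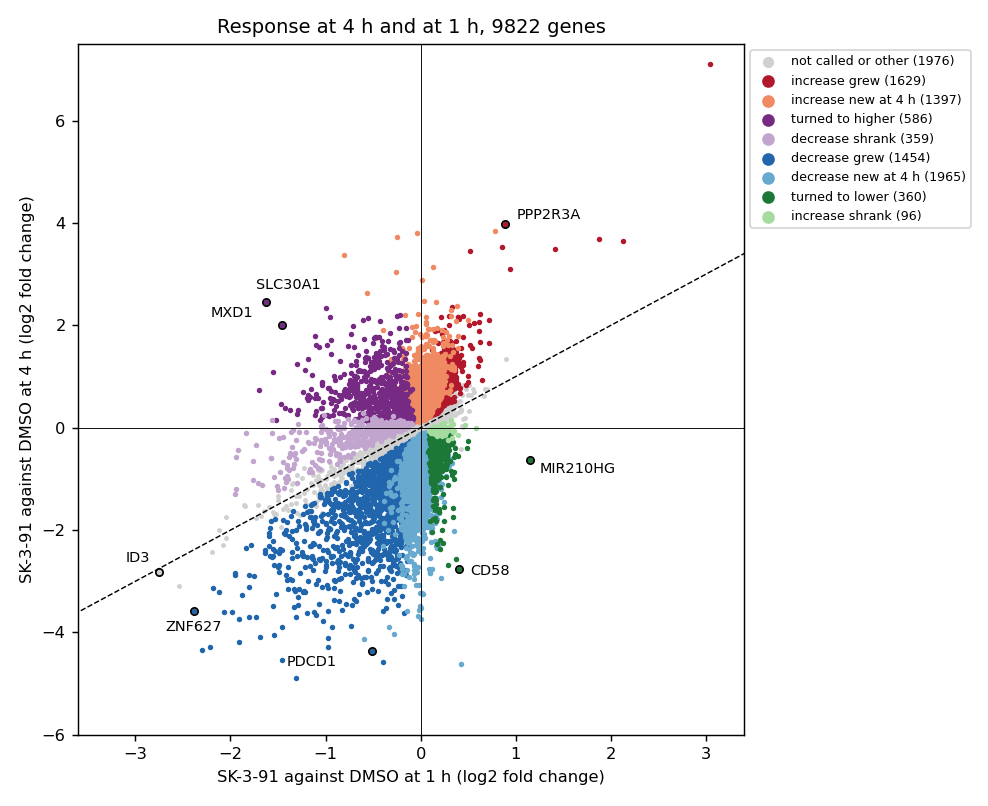
Each point is 1 gene, with the log2 fold change of SK-3-91 over DMSO at 1 h on the x axis and at 4 h on the y axis (4 libraries per group). The dashed line marks equal responses, colours give the pattern of calls with the number of genes in brackets, and circles mark named genes. SLC30A1 and MXD1 lie in the upper left, with a higher level at 4 h and a lower one at 1 h, and CD58 and MIR210HG in the lower right.

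The largest upward change among genes that passed the naming rule (a mean of at least 5 CPM in the highest group, at least 40 summed counts in every group, and 1 sign over all library choices) was that of SLC30A1, the zinc exporter of the plasma membrane. At 4 h SLC30A1 stood at 30.7, 29.1, 27.5 and 32.01 CPM with SK-3-91, against 5.51, 5.48, 4.94 and 5.87 CPM with DMSO. At 1 h it stood at 7.19, 6.06, 7.23 and 5.43 CPM with SK-3-91, against 21.4, 20.8, 19.5 and 18.5 CPM with DMSO. The groups did not overlap at either time and their order was opposite: SK-3-91 was above DMSO at 4 h and below it at 1 h. The response of SLC30A1 was 2.45 at 4 h against -1.63 at 1 h, a change of 4.08 ± 0.13 (log2, SE; edgeR adjusted p = 8.44e-27). The DMSO cultures took part in this, since SLC30A1 fell by 1.88 from 1 h to 4 h without the drug, the lowest such value of all 9822 genes.

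MXD1, which pairs with MAX and opposes MYC at E-boxes, had the same order of groups. MXD1 was at 49.3, 51.0, 51.6 and 53.9 CPM with SK-3-91 and 12.7, 12.6, 14.2 and 11.7 CPM with DMSO at 4 h. At 1 h it was at 7.61, 7.56, 7.30 and 7.91 CPM with SK-3-91 and 22.4, 19.3, 20.3 and 21.3 CPM with DMSO. SK-3-91 and DMSO again changed places without overlap, and the response differed by 3.46 ± 0.14 (edgeR adjusted p = 8.51e-24). ZBTB34, a BTB zinc-finger protein, and CREBRF, a regulator of the transcription factor CREB3, also turned, with changes of 3.11 ± 0.11 and 2.90 ± 0.14. YPEL2, a Yippee-like protein, changed by 3.34 ± 0.19, with a response of 2.34 at 4 h against -0.998 at 1 h.

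The other genes among the 10 highest had little or some response at 1 h and a large one at 4 h. LSMEM1, a small membrane protein, averaged 16.02 ± 2.2 CPM with SK-3-91 and 1.20 ± 0.26 with DMSO at 4 h, and 0.738 ± 0.22 with SK-3-91 and 0.876 ± 0.24 with DMSO at 1 h (SD, n = 4 each). KLHL11, an adaptor of cullin-3 ubiquitin ligases, averaged 105 ± 6.6 CPM with SK-3-91 and 9.54 ± 1.5 with DMSO at 4 h, and 17.2 ± 0.78 with SK-3-91 and 11.99 ± 0.70 with DMSO at 1 h. Both had higher responses at 4 h, by 3.98 ± 0.36 for LSMEM1 and 2.93 ± 0.11 for KLHL11. PPP2R3A, a regulatory subunit of protein phosphatase 2A, changed by 3.10 ± 0.26 and MCC by 3.30 ± 0.30. AMH, the anti-Müllerian hormone, had a response of 3.13 at 4 h against 0.13 at 1 h.

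At the other end stood PDCD1, which encodes the inhibitory T-cell receptor PD-1. PDCD1 was at 1.67, 1.87, 1.15 and 1.33 CPM with SK-3-91 at 4 h, against 28.2, 29.5, 30.8 and 35.6 CPM with DMSO. At 1 h it was at 15.4, 16.3, 17.7 and 14.7 CPM with SK-3-91, against 22.4, 21.7, 23.4 and 23.8 CPM with DMSO. SK-3-91 was below DMSO in every library at both times, and the gap was wider at 4 h: the response was -4.36 at 4 h against -0.51 at 1 h, a change of -3.85 ± 0.18 (edgeR adjusted p = 9.07e-22). The other genes of the 10 lowest were at or near the DMSO level at 1 h, except LOC100506688, whose response at 1 h was -0.97. They included STC2, a secreted glycoprotein, with -3.65 ± 0.19, KRCC1 with -3.54 ± 0.15, and LMAN2L, a lectin of the early secretory pathway, with -3.48 ± 0.16. SELPLG, the ligand by which leukocytes bind P-selectin, averaged 8.06 ± 0.97 CPM with SK-3-91 and 99.7 ± 3.5 with DMSO at 4 h, and 84.6 ± 1.8 with SK-3-91 and 95.7 ± 6.3 with DMSO at 1 h. ZNF672 changed by -3.28 ± 0.09, PRICKLE3 by -3.25 ± 0.18 and CXXC5 by -3.23 ± 0.19.

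An adhesion receptor and its ligand were both among the strong decreases. CD2, a T-cell adhesion receptor, was at 12.3, 12.8, 11.8 and 11.97 CPM with SK-3-91 and 102, 99.8, 107 and 101 CPM with DMSO at 4 h. At 1 h CD2 was at 101, 99.6, 106 and 103 CPM with SK-3-91 and 105, 107, 104 and 109 CPM with DMSO. The 1 h groups overlapped and the 4 h groups did not, and the response changed by -3.02 ± 0.08. CD58, the ligand of CD2, averaged 2.35 ± 0.73 CPM with SK-3-91 and 16.1 ± 0.54 with DMSO at 4 h, and 22.6 ± 1.5 with SK-3-91 and 17.1 ± 2.4 with DMSO at 1 h. CD58 was thus below DMSO at 4 h and above it at 1 h, with a change of -3.17 ± 0.17 (edgeR adjusted p = 7.39e-20).

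**Figure D2:**
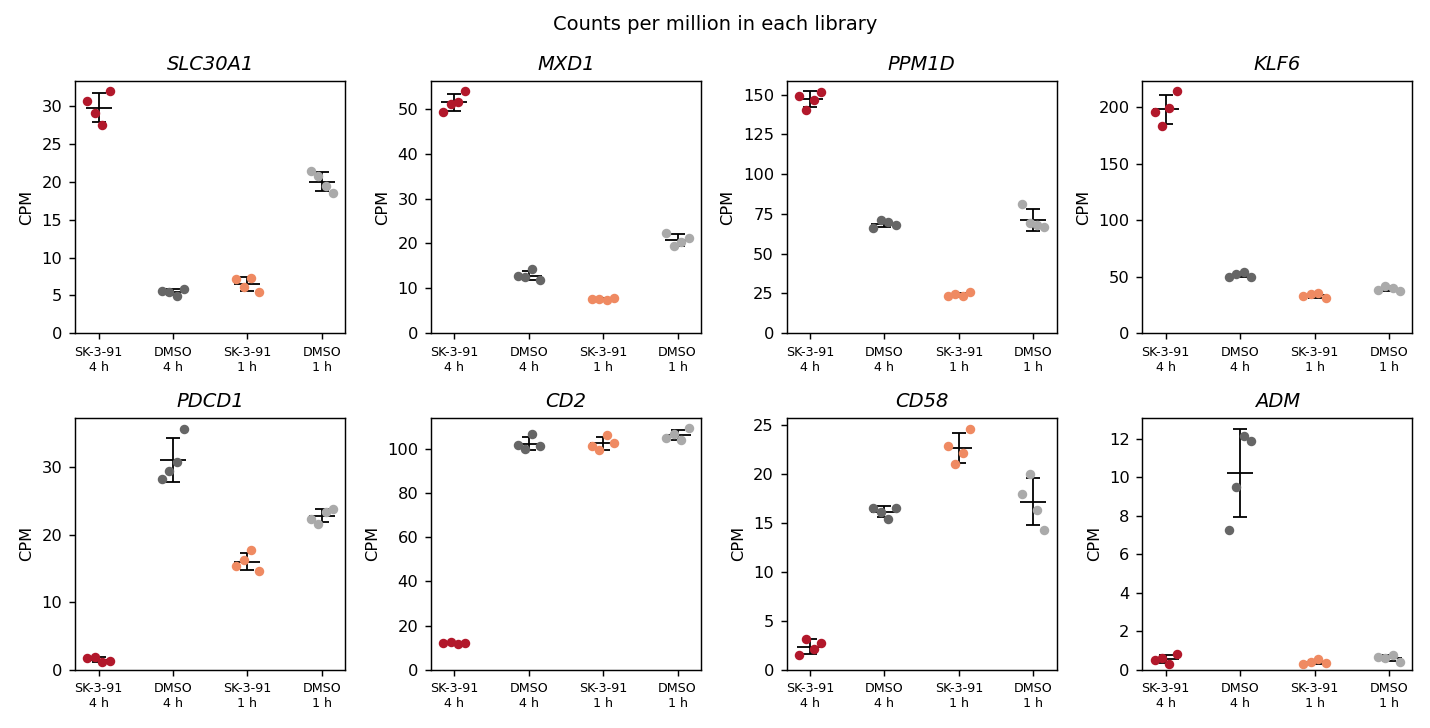
CPM (y axis) of 8 genes in each of the 4 libraries per group, with the mean and SD as horizontal marks, for SK-3-91 and DMSO at 4 h and at 1 h from left to right. In SLC30A1, MXD1 and PPM1D the SK-3-91 points are above DMSO at 4 h and below it at 1 h, and in ADM only the DMSO libraries at 4 h exceed 1 CPM.

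The stretches of 250 bases before the transcription start of 4 of these genes are shown to set genes of opposite direction side by side: SLC30A1 and CREBRF turned to higher levels, PDCD1 and CD2 had the strong decreases. They were taken from RefSeq (GRCh38.p14), 5′ to 3′ on the gene's strand. Capitals mark matches on either strand to TGCNCNC (a looser form of the core of the metal response element), CACGTG (an E-box) or GGGCGG (a GC box). A match to the looser form need not be a metal response element. SLC30A1 lies at chr1:211579162-211579411 on the minus strand, CREBRF at chr5:173056102-173056351 on the plus strand, PDCD1 at chr2:241858895-241859144 on the minus strand, and CD2 at chr1:116754180-116754429 on the plus strand.
SLC30A1: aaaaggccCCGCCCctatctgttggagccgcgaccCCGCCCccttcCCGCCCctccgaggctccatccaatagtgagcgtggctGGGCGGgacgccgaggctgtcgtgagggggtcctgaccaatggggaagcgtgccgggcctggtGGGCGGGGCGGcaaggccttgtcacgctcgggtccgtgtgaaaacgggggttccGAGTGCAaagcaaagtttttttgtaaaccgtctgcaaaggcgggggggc
CREBRF: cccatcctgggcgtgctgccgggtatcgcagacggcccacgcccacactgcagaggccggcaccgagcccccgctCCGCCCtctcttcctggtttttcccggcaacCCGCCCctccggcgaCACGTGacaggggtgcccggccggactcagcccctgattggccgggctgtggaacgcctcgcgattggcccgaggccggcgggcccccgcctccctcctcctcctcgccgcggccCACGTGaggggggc
PDCD1: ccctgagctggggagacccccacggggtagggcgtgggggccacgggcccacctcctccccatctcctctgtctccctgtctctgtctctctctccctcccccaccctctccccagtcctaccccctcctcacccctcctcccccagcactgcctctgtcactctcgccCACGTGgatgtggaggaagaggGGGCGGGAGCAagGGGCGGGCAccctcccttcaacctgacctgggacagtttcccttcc
CD2: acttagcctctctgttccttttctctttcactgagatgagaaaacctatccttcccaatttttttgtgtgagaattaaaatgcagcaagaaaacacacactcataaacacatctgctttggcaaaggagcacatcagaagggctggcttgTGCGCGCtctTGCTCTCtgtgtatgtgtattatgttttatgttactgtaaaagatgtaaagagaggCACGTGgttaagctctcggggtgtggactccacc

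SLC30A1 held 1 match to TGCNCNC and 6 to GGGCGG, and CREBRF held 2 to CACGTG and 2 to GGGCGG. PDCD1 held 2 matches to TGCNCNC, 1 to CACGTG and 2 to GGGCGG, some of which overlap, and CD2 held 2 to TGCNCNC and 1 to CACGTG. The 4 shown do not measure how common such matches are among these genes. The same stretches of MXD1, ZBTB34 and EXO1 were also searched and are not shown. Each held 0 matches to CACGTG, and they held 2, 3 and 1 to GGGCGG and 0, 0 and 1 to TGCNCNC. These letters are common: TGCNCNC was found in 56.6%, GGGCGG in 68.9% and CACGTG in 9.7% of the promoters of the 8103 tested genes that the RefSeq table holds (82.5% of those tested), and in 48.4%, 42.3% and 6.5% of all 27305 promoters of the table. Over the promoters of genes that turned to higher levels, CACGTG was found in 12.3% and GGGCGG in 72.6%. Over those whose decrease grew the shares were 8.4% and 66.2%, and the ETS-type core CCGGAAG was found in 20.8%, against 16.4% of the genes that turned to higher levels and 17.6% of the tested genes. TATAAA was found in 4.5% and TGANTCA, the AP-1 type core, in 3.3% of the tested genes' promoters. These shares are descriptions of letters in a window and were not tested.

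The called genes were sorted by their calls at the separate times, which use the same libraries and are therefore a description. The most frequent pattern downward was a decrease called at 4 h only, with 1965 genes (20% of those tested), followed by a decrease called at both times and larger at 4 h, with 1454 (14.8%). Upward, an increase called at both times and larger at 4 h held 1629 genes (16.6%), and an increase called at 4 h only held 1397 (14.2%). A further 586 genes (5.97%) turned from a call below DMSO at 1 h to a call above it at 4 h, and 360 (3.67%) turned the other way. The order of these counts depended on the scaling: 548 turned to higher and 586 to lower levels with RLE factors, 540 and 591 with DESeq2, and 376 and 415 without scaling factors. A decrease at 1 h had shrunk or was no longer called at 4 h in 359 genes (3.66%), an increase in 96 (0.977%), and 55 genes (0.56%) fitted none of these.

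The genes that turned to higher levels had a median response of 0.58 at 4 h against -0.38 at 1 h, and 10 of them were at least 2-fold from DMSO at both times in opposite directions. After SLC30A1 and MXD1, the largest responses at both times under the naming rule were those of KLHL28, a Kelch-like protein, with 1.25 at 4 h against -1.30 at 1 h, and COQ10B, a mitochondrial coenzyme Q-binding protein, with 1.35 against -1.18. The opposite turn was smaller, with a median of -0.45 at 4 h against 0.16 at 1 h. MIR210HG, the host transcript of the hypoxia-linked miR-210, had a response of -0.63 at 4 h against 1.15 at 1 h, TYSND1, a peroxisomal protease, -0.56 against 0.40, and AGTRAP, which binds the angiotensin receptor, -0.39 against 0.49. MIR210HG was at 3.97, 2.70, 2.61 and 3.27 CPM with SK-3-91 and 4.38, 4.35, 5.82 and 4.85 CPM with DMSO at 4 h. At 1 h MIR210HG was at 5.74, 5.17, 5.73 and 5.02 CPM with SK-3-91 and 2.58, 2.86, 2.48 and 1.82 CPM with DMSO, without overlap at either time.

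Among genes that passed the naming rule, the largest responses at both times in decreases that grew were those of 4 zinc-finger genes. ZNF627 averaged 2.04 ± 0.77 CPM with SK-3-91 and 24.5 ± 2.1 with DMSO at 4 h, and 5.29 ± 0.64 with SK-3-91 and 27.7 ± 2.2 with DMSO at 1 h. Its response was -3.57 at 4 h against -2.38 at 1 h, and ZC3H10, ZNF526 and ZNF436 followed with changes of -2.07 ± 0.22, -1.10 ± 0.15 and -0.53 ± 0.14. Of all 9822 genes tested, 349 had a ZNF symbol. Such genes made up 10.8% of those whose decrease grew, 10.9% of those whose decrease shrank and 4.8% of those that turned to higher levels. They made up 1.5% of decreases and 1.2% of increases new at 4 h, and 1.0% of increases that shrank. Their share was 0.8% of genes that turned to lower levels and 0.2% of those whose increase grew. Under the same rule, increases that grew were led by NNAT (neuronatin) with 2.08 ± 0.32, MASP2, a complement protease, with 2.16 ± 0.23, PPP2R3A, and LINC00926 with 2.68 ± 0.32.

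In another set of genes an early decrease was smaller or no longer called at 4 h. TIPARP, an ADP-ribosyltransferase, was at 15.9, 12.8, 13.3 and 16.3 CPM with SK-3-91 and 15.7, 15.2, 15.9 and 15.9 CPM with DMSO at 4 h. At 1 h TIPARP was at 4.56, 4.97, 5.66 and 5.23 CPM with SK-3-91 and 18.6, 18.5, 19.7 and 16.1 CPM with DMSO. The groups overlapped at 4 h and not at 1 h, and the change was 1.73 ± 0.14. ZNF420 changed by 1.70 ± 0.11 (response 0.14 at 4 h against -1.56 at 1 h), ZNF12 by 1.48 ± 0.11 (-0.44 against -1.92) and KLF10, a transcription factor induced by TGF-beta, by 1.46 ± 0.09 (-0.11 against -1.57). Among increases that shrank, the naming rule selected 4 genes, led by TTLL1, with a change of -0.54 ± 0.14, and NCKIPSD, with -0.41 ± 0.08.

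The libraries at 8 h took no part in the contrast, and the response at 8 h was called in 89.4% of all genes, in 41.3% as higher and in 48.1% as lower. Of the 586 genes that turned to higher levels, 565 were called higher and 4 lower at 8 h, and of the 360 that turned to lower levels, 334 were called lower and 10 higher. The genes that turned to higher levels had median responses of -0.38, 0.58 and 1.26 at 1, 4 and 8 h. Of the 359 genes whose decrease shrank, 218 were called higher and 75 lower at 8 h, with medians of -0.59 at 1 h, -0.09 at 4 h and 0.34 at 8 h. Of the 96 genes whose increase shrank, 82 were called lower and 9 higher at 8 h. Genes whose increase grew were called higher in 1374 of 1629 cases and lower in 137, with medians of 0.20 at 1 h, 0.82 at 4 h and 0.77 at 8 h.

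**Figure D3:**
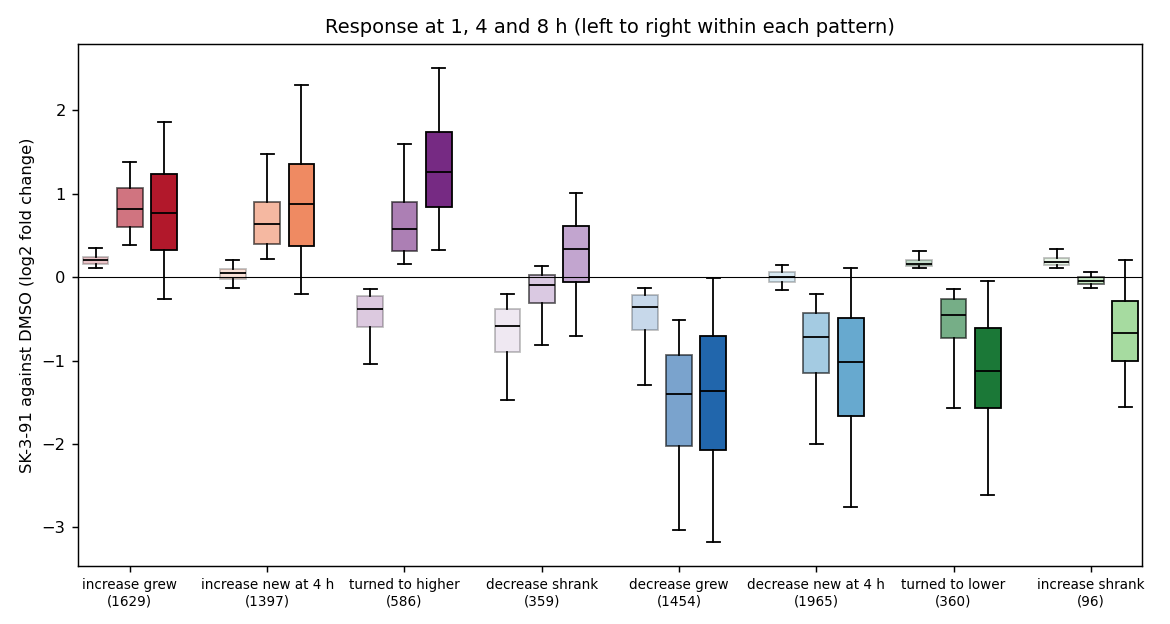
Log2 fold change of SK-3-91 over DMSO (y axis) at 1, 4 and 8 h, from left to right within each pattern of calls, with the number of genes in brackets. Boxes show the quartiles and median, whiskers the 5th and 95th percentiles of genes. The genes that turned to higher levels have medians of -0.38, 0.58 and 1.26, and those whose increase shrank were below DMSO at 8 h in the median.

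Each change in response has a side from the SK-3-91 cultures and a side from the DMSO cultures. From 1 h to 4 h, 83.8% of genes were called in SK-3-91 cultures and 35.1% in DMSO cultures, and in DMSO cultures at least 2-fold changes were found for 9 genes upward (0.0916%) and 12 downward (0.122%). Among genes with a higher response, the SK-3-91 side was the larger one in 3554 (89.2%) and the DMSO side in 432 (10.8%). Among genes with a lower response the numbers were 3643 (93.1%) and 272 (6.9%). The change was called in DMSO cultures and not in SK-3-91 cultures for 211 of the genes with a higher response and 135 of those with a lower one.

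Among genes with such a DMSO side were KLF7, a Krüppel-like factor, NRIP2, RASGEF1B and DNAJB1, a heat-shock co-chaperone. KLF7 was at 17.1, 14.6, 15.9 and 17.4 CPM with SK-3-91 and 17.7, 15.4, 18.1 and 18.1 CPM with DMSO at 4 h. At 1 h KLF7 was at 13.8, 15.5, 14.1 and 15.1 CPM with SK-3-91 and 34.1, 33.2, 33.9 and 34.0 CPM with DMSO. The DMSO level at 1 h stood above the other groups, which overlapped, and the change in response of 1.12 ± 0.12 contains a DMSO change of -0.96 and an SK-3-91 change of 0.16. DNAJB1 averaged 85.8 ± 3.6 CPM with SK-3-91 and 272 ± 5.3 with DMSO at 4 h, and 80.1 ± 6.8 with SK-3-91 and 129 ± 9.9 with DMSO at 1 h, and its response changed by -0.98 ± 0.07.

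The largest DMSO change of all genes was that of ADM (adrenomedullin, a hypoxia-induced peptide), 4.06 on the log2 scale. ADM was at 0.522, 0.622, 0.313 and 0.818 CPM with SK-3-91 and 7.26, 9.51, 12.1 and 11.9 CPM with DMSO at 4 h. At 1 h it was at 0.277, 0.408, 0.546 and 0.344 CPM with SK-3-91 and 0.644, 0.585, 0.781 and 0.390 CPM with DMSO. DMSO at 4 h was the only group above 1 CPM, and SK-3-91 libraries at 4 h held 22 ADM counts in sum, so the change of -3.54 ± 0.66 is imprecise. Rises on both sides also occurred, as in BHLHE40, a hypoxia- and stress-responsive repressor chosen after its values were seen: it rose by 0.93 in SK-3-91 cultures and by 1.61 in DMSO cultures, and its response changed by -0.69 ± 0.18. DTX1, a Notch target, fell by 0.87 in SK-3-91 cultures and rose by 1.21 in DMSO cultures. ID3, an inhibitor of basic helix-loop-helix factors, fell by 1.14 in SK-3-91 cultures and by 1.07 in DMSO cultures, and no change in response was called for it.

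**Figure D4:**
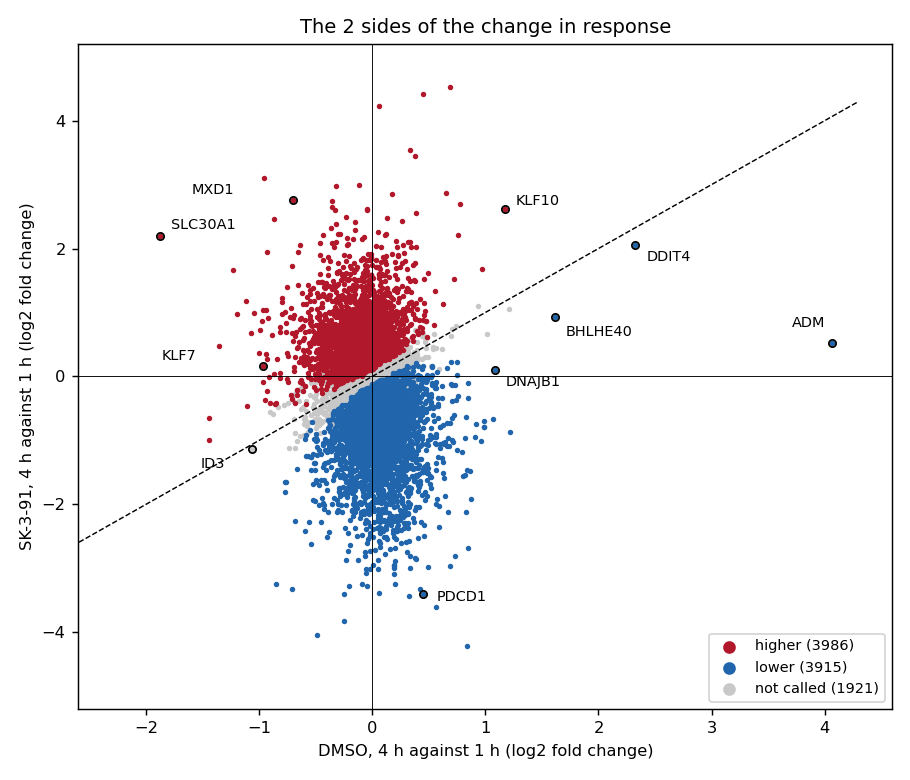
Each point is 1 gene, with its log2 change from 1 h to 4 h in DMSO cultures on the x axis and in SK-3-91 cultures on the y axis (4 libraries per group). Red points have a higher and blue points a lower response at 4 h, grey points were not called, and the dashed line marks equal changes. SLC30A1 is the leftmost gene and ADM the rightmost.

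Genes of the cytosolic ribosome and of oxidative phosphorylation had higher responses at 4 h. All 69 measured cytosolic ribosomal protein genes rose relative to 1 h, with a median of 0.97 (range 0.58 to 1.53) against 0.01 for all genes, and the median was 0.70 without scaling factors. The 42 genes of the large subunit had a median of 0.95 and the 27 of the small subunit a median of 1.00. RPLP2, an acidic protein of the ribosomal stalk, averaged 768 ± 62 CPM with SK-3-91 and 269.9 ± 20 with DMSO at 4 h, and 347 ± 23 with SK-3-91 and 273 ± 30 with DMSO at 1 h, and its response changed by 1.16 ± 0.10. Of 69 ribosomal genes, 15 share much of their sequence with pseudogenes or overlap genes of the other strand, so their counts are uncertain, RPS28 among them. Ribosomal protein genes were short, with a median deposited width of 1172 bases against 3895 for all genes, and the shortest genes stood apart in the change in response: 58.4% of the 766 genes under 1500 bases were called higher and 26.0% lower. The shares higher and lower were 40.2% and 41.2% from 1500 to under 3000 bases, 37.2% and 43.6% from 3000 to under 6000, and 41.2% and 36.3% from 6000 bases. The part of gene width in these results was not tested.

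Nuclear genes of oxidative phosphorylation showed the same direction. Of 70 genes 61 (87.1%) were called higher and 5 (7.1%) lower, against 40.6% and 39.9% of all genes. The median of the list was 0.80. Within this list, 11 of 11 subunits and assembly partners of complex IV and 15 of 15 of ATP synthase were called higher, 25 of 32 of complex I and 7 of 8 of complex III. COX8A, a complex IV subunit, was at 390, 390, 392 and 397 CPM with SK-3-91 and 142, 143, 152 and 159 CPM with DMSO at 4 h. At 1 h COX8A was at 181, 163, 168 and 180 CPM with SK-3-91 and 144, 151, 138 and 141 CPM with DMSO, and its response changed by 1.12 ± 0.07. NDUFV3, a complex I subunit, went against the list with -1.78 ± 0.08. Their median width of 1254 bases is also short.

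Of 30 proteasome subunit genes 21 (70.0%) were called higher and 5 (16.7%) lower, against 40.6% and 39.9% of all genes. The median of the list was 0.36, and 0.09 without scaling factors. In the catalytic 20S core 9 of 11 were higher, with a median of 0.60, and in the regulatory 19S particle 12 of 19, with a median of 0.25. PSMA7 and PSMB2 of the core rose by 0.90 ± 0.07 and 0.84 ± 0.05. PSMB5, the core subunit with chymotrypsin-like activity that bortezomib binds, was the opposite, with -1.59 ± 0.09. The mitochondrial ribosome differed from the cytosolic one: 21 (30.4%) of its 69 genes were called higher and 39 (56.5%) lower, with a median of -0.29. MRPL36, MRPS31 and MRPL15 had -2.37 ± 0.17, -2.18 ± 0.12 and -1.44 ± 0.07. Of 60 translation factors and related enzymes, 27 were called higher and 18 lower (17 and 32 without scaling factors). EIF1, which selects the start codon, rose by 1.39 ± 0.08 and EIF2B4 fell by 1.43 ± 0.08.

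**Figure D5:**
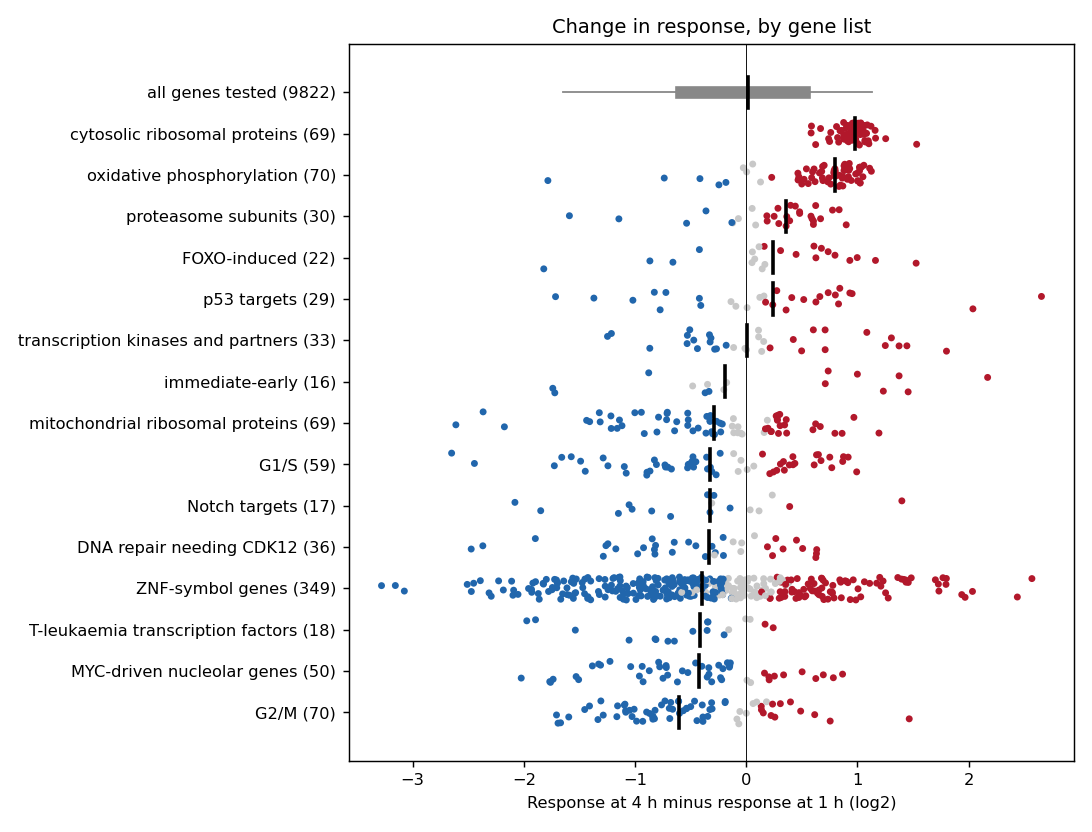
Change in response (x axis, response at 4 h minus response at 1 h, log2) of each measured member of 15 gene lists, with the number of genes in brackets. Red points were called higher, blue lower and grey not called, black bars are medians, and the top row gives the quartiles (thick line) and the 5th to 95th percentiles (thin line) of all genes. All 69 ribosomal protein genes are to the right of 0, and the medians of the lists from immediate-early down to G2/M are to the left.

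Genes of cell division had lower responses at 4 h. Of 70 genes of the G2/M phase 51 (72.9%) were called lower and 12 (17.1%) higher, against 39.9% and 40.6% of all genes. The median of the list was -0.60. From 1 h to 4 h its median change was -0.30 in SK-3-91 cultures and 0.27 in DMSO cultures, so both sides took part. UBE2T, a ubiquitin-conjugating enzyme of the Fanconi pathway, averaged 21.1 ± 1.7 CPM with SK-3-91 and 75.03 ± 3.1 with DMSO at 4 h, and 61.0 ± 2.5 with SK-3-91 and 66.2 ± 4.1 with DMSO at 1 h. CENPA, the histone variant of centromeres, changed by -1.69 ± 0.09, CCNF, cyclin F, by -1.67 ± 0.07 and NDC80, a kinetochore protein, by -1.60 ± 0.09. In DMSO cultures CENPA and CCNF rose by 0.70 and 0.63 from 1 h to 4 h, so part of their change in response is on the DMSO side. PRC1, KIF23 and MYBL2 were among the 12 higher, at 1.47, 0.75 and 0.62.

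Of 59 G1/S genes 33 (55.9%) were called lower and 21 (35.6%) higher, against 39.9% and 40.6% of all genes. The median of the list was -0.32. EXO1, an exonuclease of mismatch repair, averaged 9.14 ± 1.5 CPM with SK-3-91 and 85.3 ± 2.2 with DMSO at 4 h, and 67.4 ± 4.5 with SK-3-91 and 99.96 ± 2.7 with DMSO at 1 h, and its response changed by -2.65 ± 0.09. POLA2 and PRIM1, subunits of the polymerase alpha-primase complex, had -2.44 ± 0.08 and -1.73 ± 0.08. Of 36 DNA repair genes linked to CDK12, 22 were lower and 9 higher, led by FANCE with -2.47 ± 0.14 and TERF2, a telomere-binding protein, with -2.37 ± 0.08. Among cyclin-dependent kinases of the cell cycle and their partners 12 of 29 (41.4%) were called in each direction, near the shares of all genes. Without scaling factors 7 were higher and 18 lower. CDKN2D, an inhibitor of CDK4 and CDK6, rose by 1.88 ± 0.08, and CCNE1, cyclin E1, fell by 1.49 ± 0.10.

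Of 18 transcription factors of T-cell leukaemia 13 (72.2%) were called lower and 2 (11.1%) higher, against 39.9% and 40.6% of all genes. The median of the list was -0.42. MYB was at 233.5, 230.0, 244.4 and 243.8 CPM with SK-3-91 and 1103, 1099, 1084 and 1034 CPM with DMSO at 4 h. At 1 h MYB was at 695.8, 766.6, 740.2 and 732.2 CPM with SK-3-91 and 908.8, 900.8, 881.6 and 888.7 CPM with DMSO. SK-3-91 was below DMSO at both times without overlap, and the gap was wider at 4 h, with a change of -1.90 ± 0.05 (edgeR adjusted p = 9.28e-29). FLI1, an ETS factor, changed by -1.97 ± 0.09. Of 17 Notch genes and targets 11 (64.7%) were lower and 2 (11.8%) higher. Among the lower were NOTCH1 with -1.05 ± 0.07 and DTX1 with -2.08 ± 0.09. HES1, the classic Notch target, went the other way with 1.40 ± 0.08: its response was -0.34 at 4 h against -1.74 at 1 h. Of 50 nucleolar genes driven by MYC 38 were lower and 10 higher, with a median of -0.43, led by POLR1E and POLR1B, subunits of RNA polymerase I, with -2.02 ± 0.09 and -1.76 ± 0.08.

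MYC itself was one of the genes with a large response and no called change in it. MYC was at 373.6, 407.0, 385.3 and 379.7 CPM with SK-3-91 and 733.7, 747.0, 761.4 and 747.4 CPM with DMSO at 4 h. At 1 h it was at 358.9, 361.7, 361.6 and 368.8 CPM with SK-3-91 and 752.1, 706.9, 682.3 and 733.0 CPM with DMSO. SK-3-91 was below DMSO in every library at both times by nearly the same amount, -0.95 at 4 h and -0.99 at 1 h, and the difference was 0.03 ± 0.06 (edgeR adjusted p = 0.584). Without scaling factors this estimate was -0.24 and passed the threshold. ID3 had responses of -2.83 at 4 h and -2.75 at 1 h (change -0.07 ± 0.19), and DUSP1, a MAP kinase phosphatase, -2.28 and -2.08 (change -0.20 ± 0.27). CISH, a STAT5 target, had -3.10 and -2.54, with a change of -0.56 ± 0.27 and an edgeR adjusted p of 0.056. Without DMSO 1 h replicate 2, SK-3-91 1 h replicate 4 or SK-3-91 4 h replicate 3 it was -0.60, -0.69 or -0.67 and passed the threshold. The CISH change also passed with upper-quartile factors (-0.62), without scaling factors (-0.83) and in a fit of the 16 libraries only (-0.56, edgeR adjusted p = 0.0497).

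Immediate-early and signalling genes split between both directions, as all genes did, of which 40.6% were called higher and 39.9% lower. Of 16 immediate-early genes 7 (43.8%) were called higher and 5 (31.2%) lower (7 in each direction without scaling factors), with a median of -0.19. KLF6, a Krüppel-like factor, was at 196, 184, 199 and 214 CPM with SK-3-91 and 49.8, 52.7, 53.7 and 49.5 CPM with DMSO at 4 h. At 1 h KLF6 was at 30.67 to 35.68 CPM with SK-3-91 and 37.32 to 41.95 CPM with DMSO, so that SK-3-91 was above DMSO at 4 h and below it at 1 h, and the response changed by 2.17 ± 0.07 (edgeR adjusted p = 5.22e-26). KLF10, ZFP36 and ZFP36L1 also rose relative to 1 h, as did IER2, whose exons overlap a gene of the other strand and whose counts are uncertain. In contrast, NR4A1, a nuclear receptor induced by T-cell receptor signals, had -1.74 ± 0.22 and FOSL2, an AP-1 subunit, -1.72 ± 0.17. For NR4A1 the DMSO side was the larger one, with a DMSO change of 1.07 and an SK-3-91 change of -0.67. Of 13 genes of ERK feedback 4 (30.8%) were higher and 5 (38.5%) lower. The phosphatases DUSP5 and DUSP7 had -2.43 ± 0.40 and -1.38 ± 0.07, and SPRED2, an inhibitor of RAS signalling, 1.495 ± 0.06.

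Of 29 p53 targets 16 (55.2%) were called higher and 8 (27.6%) lower, against 40.6% and 39.9% of all genes. The median of the p53 targets was 0.24, and -0.04 without scaling factors, where 10 were higher and 11 lower. PPM1D, the phosphatase that damps p53 signalling, was at 149, 140, 147 and 152 CPM with SK-3-91 and 66.0, 71.0, 69.7 and 68.2 CPM with DMSO at 4 h. At 1 h PPM1D was at 23.3, 24.4, 23.1 and 25.8 CPM with SK-3-91 and 81.3, 69.0, 67.7 and 66.4 CPM with DMSO. The order of the groups was reversed between the times and the response changed by 2.65 ± 0.08 (edgeR adjusted p = 1.96e-27), with a DMSO change of -0.05. ZMAT3, an RNA-binding protein, rose by 2.04 ± 0.09, with a DMSO change of -1.05, and POLH, a polymerase that bypasses ultraviolet damage, fell by 1.72 ± 0.07. Of 22 FOXO-induced genes 12 (54.5%) were higher and 4 (18.2%) lower (median 0.24, and -0.04 without scaling factors). The chemokine receptor CXCR4 rose by 1.53 ± 0.06, and CDKN1B, a cyclin-dependent kinase inhibitor, had a response of -1.20 at 4 h against -1.94 at 1 h, a change of 0.74 ± 0.10.

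Of 33 genes of transcription kinases and their partners 12 (36.4%) were called higher and 14 (42.4%) lower, near the 40.6% and 39.9% of all genes. CCNT2 and CCNT1, the cyclins T that activate CDK9, rose by 1.80 ± 0.09 and 1.30 ± 0.06 relative to 1 h, and ELL, an elongation factor, by 1.44 ± 0.09. MEPCE, the enzyme that caps 7SK RNA, and PAF1, an elongation factor subunit, fell by 1.25 and 1.21. CDK9 had -0.01 ± 0.08 (edgeR adjusted p = 0.886), CDK12 -0.51 ± 0.06, and CRBN, a substrate receptor of cullin-4 ubiquitin ligases, -0.14 ± 0.08 (edgeR adjusted p = 0.107). Without scaling factors CDK9 was at -0.29 and CRBN at -0.41, and both were called lower. Both were also called lower with limma on the deposited log2 values (-0.24 and -0.29), and CRBN with upper-quartile factors (-0.20).

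Stress and metabolic lists were mixed, as were all genes, of which 40.6% were called higher and 39.9% lower. Of 27 genes of the unfolded protein response 12 were higher and 15 lower: XBP1, its transcription factor, had -2.44 ± 0.09 and DNAJC3, an inhibitor of eIF2alpha kinases, 1.53 ± 0.08. Of 29 genes of sterol synthesis 12 were higher and 14 lower, with opposite extremes in MVK, mevalonate kinase, at -3.06 ± 0.14 and MSMO1, a C4-methylsterol oxidase, at 1.92 ± 0.09. MSMO1 averaged 173 ± 12 CPM with SK-3-91 and 66.9 ± 4.0 with DMSO at 4 h, and 26.8 ± 1.4 with SK-3-91 and 39.1 ± 3.6 with DMSO at 1 h. Of 42 genes of glycolysis and hypoxia 20 were higher and 19 lower (19 and 22 without scaling factors), with PFKFB3, a glycolytic regulator, at -2.37 ± 0.08. Of 22 heat-shock genes 11 (50.0%) were lower and 6 (27.3%) higher, with SERPINH1, a collagen chaperone, at -2.52 ± 0.16 and HSPB1, a small heat-shock protein, at 1.07 ± 0.10. The median change of the heat-shock list from 1 h to 4 h was 0.09 in SK-3-91 cultures and 0.27 in DMSO cultures. Of 13 genes of the BCL-2 family 5 were called in each direction (2 higher and 6 lower without scaling factors), MCL1 with a response of -0.28 at 4 h against -0.99 at 1 h and a change of 0.71 ± 0.06.

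Of 45 interferon-stimulated genes 16 (35.6%) were higher and 20 (44.4%) lower, against 40.6% and 39.9% of all genes. ZC3HAV1, an antiviral zinc-finger protein, was at 2.004 ± 0.06 and IFIT3 at -2.06 ± 0.15. Of 16 NF-kB targets 4 were called in each direction (3 higher and 7 lower without scaling factors), and NFKBIE, an inhibitor of NF-kB, had -2.08 ± 0.20. Of 14 JAK-STAT targets 6 were higher and 4 lower (5 and 7 without scaling factors). Of 31 T-lineage genes 13 were higher and 11 lower (8 and 15 without scaling factors), and 7 were lower by at least 2-fold, among them CD2, CD69, an early activation marker, at -1.69 ± 0.15 and UBASH3A, a phosphatase of T-cell receptor signalling, at -1.56 ± 0.07.

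Genes with a ZNF symbol, most of which encode DNA-binding zinc-finger proteins, were called lower in 192 (55.0%) and higher in 86 (24.6%) of 349 cases. Of all genes 39.9% were called lower and 40.6% higher. The ZNF-symbol genes had a median of -0.40. Their responses at 4 h and 1 h had medians of -1.05 and -0.66. ZNF672, ZNF837 and ZNF200 had -3.28 ± 0.09, -3.16 ± 0.24 and -3.08 ± 0.19, and ZNF267 had 2.57 ± 0.10. Of 176 solute carriers 87 (49.4%) were lower and 56 (31.8%) higher. The nucleotide-sugar transporters of the SLC35 family were called lower in 13 of 18 cases, with a median of -0.60, and the zinc transporters SLC30 and SLC39 lower in 9 and higher in 5 of 16, among which SLC30A1, at 4.08, was the highest and SLC39A3 the lowest, at -1.60. The response of the cystine transporter SLC7A11 changed by 1.83 ± 0.16, from -1.18 at 1 h to 0.65 at 4 h. The DMSO side was the larger one, with a DMSO change of -1.36 and a change of 0.47 in the treated cultures.

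Some of the most extreme estimates belonged to genes under 40 summed counts in 1 of the 4 groups, and they were chosen after their values were seen. RAB20, a small GTPase, had 4 counts in sum with SK-3-91 and 177 with DMSO at 4 h, and 122 with SK-3-91 and 96 with DMSO at 1 h. RASL11A, a RAS-like protein, had 280 counts with SK-3-91 and 44 with DMSO at 4 h, and 22 with SK-3-91 and 41 with DMSO at 1 h. SLC26A5, which encodes prestin of the inner ear, had 471 counts with SK-3-91 and 5 with DMSO at 4 h, and 82 with SK-3-91 and 10 with DMSO at 1 h. Their directions are clear from the sums, while their fitted fold changes depend on a handful of reads.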

How the data were processed

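RNA-seq of MOLT4 cells was made as 50-base single-end reads on a BGISEQ-500, per the labels' protocols. The authors deposited read counts per gene, aligned to hg19 per the submitters' processing notes, which also name edgeR; the sources used here do not name the aligner. A second table deposited by the authors holds log2 values whose antilog is a straight-line function of the counts with an offset, and it was used only in an alternative. The gene width column deposited with the counts was used as a description. Counts were fitted with edgeR 4.0.16 (R 4.3.3) over all 24 libraries and 6 groups, with TMM scaling and the quasi-likelihood F test, and p-values were Benjamini-Hochberg adjusted over 9822 genes; filterByExpr removed 0 genes. CPM values are TMM-scaled. Alternatives used DESeq2 1.42.0 and limma 3.58.1. The fit was tested on simulated data.

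Named genes were the 10 highest and lowest estimates, up to 4 genes per pattern, per list and for the DMSO side, and a fixed set of 22; those with 20% or more shared or opposite-strand sequence (GENCODE 29; 9788 genes matched) were passed over or called uncertain. The members, lists and rules were chosen with earlier results of these data known. Lists are described by counts and medians and were not tested. Some genes that the naming rule selects are not reported here.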

Additional observations from a re-analysis of the deposited data

Results flagged for a closer look

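The test of the difference between time points itself was passed by 3986 genes with a higher and 3915 genes with a lower SK-3-91 response at 4 h than at 1 h. For each direction of turn, the 4 genes that the naming rule selected by their responses at both times were looked at again; other named genes, such as KLF6 and PPM1D, also turned. SLC30A1, MXD1, KLHL28 and COQ10B, with changes of 4.08, 3.46, 2.55 and 2.53, were above DMSO at 4 h and below it at 1 h. MIR210HG, CD58, TYSND1 and AGTRAP, with -1.78, -3.17, -0.96 and -0.88, were below DMSO at 4 h and above it at 1 h.

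In 10 of 168 sets of 4 libraries (41 genes and the counted reads, in 4 groups each) 1 library stood apart from the other 3 by Dixon's criterion, which chance passes in about 1 of 20 sets. With SK-3-91 at 4 h these were EGR1 at 5.75 CPM (others 4.77, 4.69 and 4.70) and ID3 at 3.27 CPM (others 2.61, 2.59 and 2.61). With DMSO at 4 h they were EOMES at 13.3 CPM and SELPLG at 94.6 CPM. With SK-3-91 at 1 h they were CDKN1B at 22.2 CPM, LOC100506688 at 12.4 CPM and LSMEM1 at 0.408 CPM. With DMSO at 1 h they were CXXC5 at 11.1 CPM, KRCC1 at 15.2 CPM and LSMEM1 at 0.520 CPM. The last 3 were all DMSO 1 h replicate 4, and no other library stood apart in more than 2 sets.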

How the results depend on the processing

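Leaving out each of the 16 libraries in turn gave 3916 to 3957 higher and 3832 to 3873 lower calls. With RLE factors or DESeq2 the genes that turned to lower levels numbered 586 and 591, above the 548 and 540 that turned to higher levels, and those whose increase shrank 164 and 165. Without scaling factors 359 genes had a response higher by 2-fold or more and 2009 a response lower by that much, 376 turned to higher levels, 1062 increases grew and 908 were new at 4 h. Of all called genes 34% were then higher, against 50.4% with TMM, and 37 turned direction. A test against a minimum fold of 1.5 called 1523 higher and 1934 lower. It left 0 genes turned to lower and 38 to higher levels, 164 decreases and 4 increases that grew, and 98 decreases and 1 increase that shrank. MYC changed sign to -0.24 both without scaling factors and with limma on the deposited log2 values, H3-3B to -0.029 in both, and ID3 to 0.41 with limma. Log2 values of the second table carry an offset that compresses low genes.

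The replicate numbers did not pair the samples: of 24 correlations of same-numbered deviations 5 were over 0.1. The replicate block gave 3982 higher and 3905 lower calls and changed no call of a named gene. At this depth the genes with fewer than 40 summed counts in a group have fold changes that rest on few reads.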
